A study of Rattus norvegicus with 5 samples.

Results

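The genes that place, read and remove N6-methyladenosine (m6A), the most common internal modification of messenger RNA, were examined in fat from around the pancreas of rats on 2 diets. The set has 9 genes: the readers Ythdf1, Ythdf2, Ythdf3 and Ythdc1, the writers Mettl3, Mettl14 and Wtap, and the erasers Fto and Alkbh5. Members were found by symbol: every probe set (a group of array probes for one transcript) to which the platform annotation gives exactly one of these symbols was taken, which was 19 of 31042 probe sets. Of the 19, 18 passed a filter on dim signals and entered the test. The set was chosen after Ythdf2 was known to differ between the diets on one of its probe sets, and the disagreement between its probe sets was also known. The Ythdf2 difference and that disagreement are therefore given below as a description, with no test. After that choice the Ythdf2 intervals show the precision of the fit and are not read as tests.

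Each of 5 Affymetrix arrays carried total RNA of 1 independent sample of the mesenteric fat that surrounds the pancreas, from male Wistar rats 7 weeks old at the start. The standard group, described as lean, had 3 samples from rats on standard chow, whose calories were 8% fat. The cafeteria group, described as obese, had 2 samples from rats whose cafeteria diet had 66% of its calories as fat. Both diets ran for 30 days, the rats were housed singly, and no other treatment is named. Values are log2 expression levels per probe set, and their number, 2 against 3 arrays, limits the precision of every comparison.

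The m6A mark is written in the nucleus by a complex in which METTL3 is the catalytic subunit, METTL14 its RNA-binding partner and WTAP the adaptor that holds the pair at nuclear speckles. Proteins with a YTH domain bind the methylated base: YTHDC1 in the nucleus, where it takes part in splicing and export, and YTHDF1, YTHDF2 and YTHDF3 in the cytoplasm, where YTHDF2 is best known for recruiting the CCR4-NOT deadenylase and shortening the life of its targets. FTO and ALKBH5 remove the mark by oxidation, and variants in human FTO are linked to body weight, in part through the neighbouring gene IRX3. The arrays measure the messenger RNA of these genes and not the methylation itself.

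The tissue is a mixture of cells, so fewer cells of a type and less RNA per cell cannot be told apart. All 8 adipocyte markers checked were measured, and their mean was 11.94 and 12.13 on the cafeteria arrays against 11.48 to 11.64 on the standard arrays. The mean of 11 of 12 listed pancreatic acinar genes was 8.97 on standard replicate 1 and 4.12 to 4.60 on the other arrays. Endothelial markers, 6 of 7 listed genes, were lower on the cafeteria arrays, at 8.43 and 8.92 against 9.08 to 9.20, T cell markers (6 genes) lay at 4.97 and 5.54 against 5.64 to 6.14, and fibroblast markers (5 genes) at 11.64 and 11.70 against 11.26 to 11.48. The means of 6 of the 10 marker lists, the acinar list included, overlapped between diets. Among them the smooth muscle mean (5 genes) was 11.22 on standard replicate 3 and 8.24 to 9.76 on the other arrays. The part of any of these cells in the differences below was not tested.

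The 250 bases upstream of the annotated start of Ythdf2 and Ythdc1 are shown because these genes had the largest diet difference of the family in each direction. They are RefSeq sequences of build GRCr8, at chr5:149690059-149690308 for Ythdf2 and chr14:21570455-21570704 for Ythdc1, both on the minus strand and written 5′ to 3′ along the gene. Capitals mark the GC box GGGCGG, searched on both strands.
Ythdf2: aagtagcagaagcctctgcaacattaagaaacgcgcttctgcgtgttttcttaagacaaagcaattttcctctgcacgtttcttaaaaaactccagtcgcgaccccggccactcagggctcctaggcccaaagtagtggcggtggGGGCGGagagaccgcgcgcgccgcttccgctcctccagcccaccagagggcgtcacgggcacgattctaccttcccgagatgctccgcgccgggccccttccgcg
Ythdc1: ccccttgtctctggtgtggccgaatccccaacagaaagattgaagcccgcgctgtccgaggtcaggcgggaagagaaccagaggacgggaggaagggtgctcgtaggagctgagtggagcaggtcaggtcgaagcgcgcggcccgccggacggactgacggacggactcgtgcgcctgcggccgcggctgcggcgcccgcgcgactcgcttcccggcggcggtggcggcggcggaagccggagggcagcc
The Ythdf2 window held 1 GC box and 24 CpG dinucleotides, and the Ythdc1 window held no GC box and 34 CpG, where the median of 33469 rat promoter windows was 5 CpG. Of those windows 30.5% held a GC box. Promoter windows were matched for 7 of the 9 genes, and 4 of the 7, Fto, Wtap, Ythdf1 and Ythdf2, held a GC box. The cAMP response element TGACGTCA, present in 1.59% of all windows, was found among the 7 in Mettl14. The E-box CACGTG (5.59% of windows) was found in Ythdf1, with both strands searched for each. A match describes the letters of the window and is not evidence of binding.

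Of the readers, Ythdf2 had the largest diet difference and was higher in cafeteria samples on both of its probe sets. On probe set 1371960_at it read 9.85 and 9.89 on the cafeteria arrays and 9.06, 9.05 and 8.97 on the standard arrays. The 2 cafeteria values lay close together and 0.79 above the highest standard value, while the 3 standard values spanned 0.09. The group means were 9.87 ± 0.03 (SD, n = 2) and 9.03 ± 0.05 (SD, n = 3), a log2 difference of 0.84 ± 0.06 (SE; 95% interval 0.69 to 0.99), or 1.79-fold. An absolute difference of this size or more was found for 324 of the 21729 probe sets tested, or 1.49%. Since the set was chosen with this difference known, that share is a description and not a test. The difference stayed between 0.81 and 0.86 when each array was left out in turn. It was 0.86 without standard replicate 1, the array rich in acinar transcripts. Without standard replicate 3, the array with the highest smooth muscle mean, it was 0.81. The part of these cells in the difference was not tested.

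The second Ythdf2 probe set, 1375695_at, gave a smaller difference in the same direction. It read 8.31 and 8.32 on the cafeteria arrays and 8.14, 8.22 and 7.96 on the standard arrays. The diets again did not overlap, but the nearest arrays were only 0.09 apart, less than the 0.26 that the standard arrays spanned. The difference was 0.21 ± 0.09 (SE; 95% interval -0.03 to 0.46), or 1.16-fold. As Ythdf2 is not tested here, no interval of its probe sets is read against 0. It was 0.14 without standard replicate 3, the array that read lowest on both probe sets, and 0.27 without standard replicate 2.

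**Figure D1:**
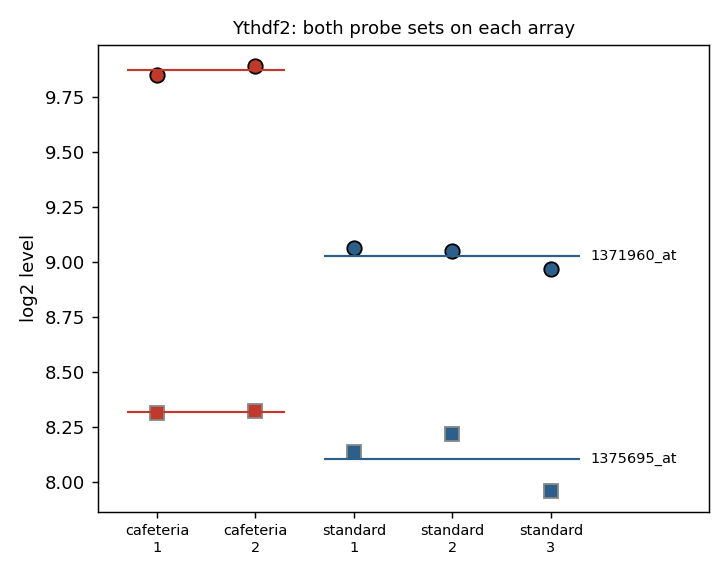
Log2 level of Ythdf2 (vertical axis) on each of the 5 arrays (horizontal axis), with circles for probe set 1371960_at and squares for 1375695_at, cafeteria in red and standard in blue, and lines at the group means. The cafeteria values lie 0.79 above the highest standard value on the first probe set and 0.09 above it on the second.

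The Ythdf2 probe sets therefore disagreed in size and not in direction. The value of 1371960_at minus that of 1375695_at was 1.54 and 1.57 on the cafeteria arrays and 0.93, 0.83 and 1.01 on the standard arrays. This difference has no meaning as a level, but its change between diets does: the means were 1.55 ± 0.02 (SD, n = 2) and 0.92 ± 0.09 (SD, n = 3), so the diet difference of the first probe set exceeded that of the second by 0.63, and the nearest arrays of the 2 diets were 0.53 apart. The second difference was 25.1% of the first. Averaging both gave 0.53 for the gene.

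The size of that disagreement was set beside all genes with several probe sets. Among 3363 genes with at least 2 probe sets tested, the gap between the largest and smallest diet difference had a median of 0.13 and a 90th percentile of 0.34, and 62 genes, Ythdf2 included, reached the 0.63 of Ythdf2 (1.84%). Of 43 genes with exactly 2 tested probe sets whose larger difference was at least that of Ythdf2 in absolute size, the other probe set gave a median of 65.3% of the larger one, and in 14 of the 43 (32.6%), again with Ythdf2, it gave 25.1% or less. In 38 of the 43 both probe sets had the same sign. These shares describe the arrays and are no test of which Ythdf2 probe set gives the level of its transcripts, and the positions of the probes along Ythdf2 were not used here.

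**Figure D2:**
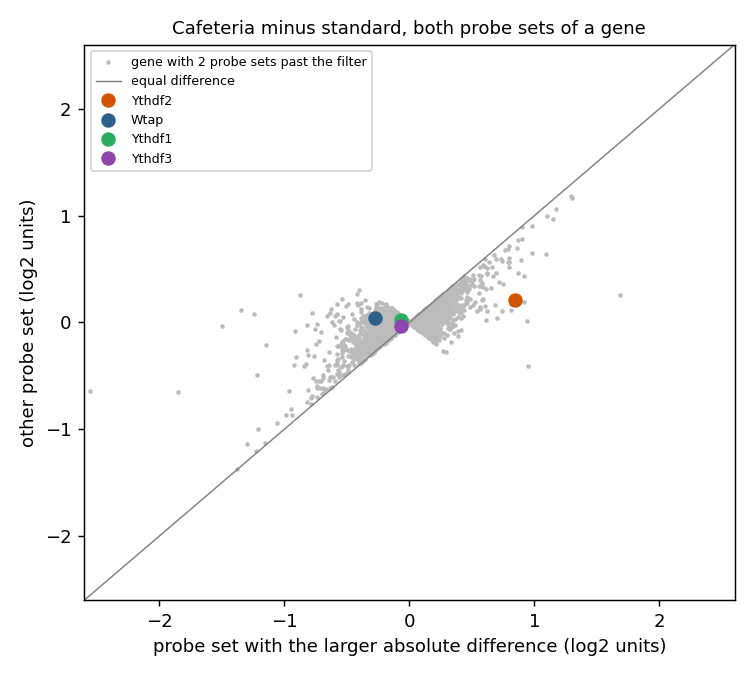
Cafeteria minus standard difference (log2 units) of genes with exactly 2 tested probe sets, the probe set with the larger absolute difference on the horizontal axis and the other on the vertical axis; 1 of 2452 genes lies outside the axes. Ythdf2, at 0.84 and 0.21, lies well below the line of equal difference, Wtap has opposite signs, and Ythdf1 and Ythdf3 lie near the origin.

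The other cytoplasmic readers, Ythdf1 and Ythdf3, had differences near 0. Ythdf1, a reader linked to translation, read 8.31 and 8.39 on the cafeteria arrays and 8.35, 8.39 and 8.51 on the standard arrays for its brightest probe set, 1367498_at. The diets overlapped and the difference was -0.07 ± 0.07 (SE), with a 95% interval of -0.26 to 0.13. A second probe set, 1385699_at, gave 0.02, with an interval of -0.15 to 0.18 and the same value, 7.54, on 3 arrays. The third, 1379215_at, read 2.95 to 3.05 on all arrays, below the filter, and was not tested. Ythdf3, a reader that acts together with both others, read 8.40 and 8.46 against 8.44, 8.50 and 8.45 on probe set 1389524_at. Its difference was -0.03, with an interval of -0.17 to 0.11, and its dimmer probe set 1378646_at gave -0.06, with an interval of -0.26 to 0.14.

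Ythdc1, the nuclear reader, has 1 probe set, 1368063_a_at, and was lower in cafeteria samples. It read 9.02 and 9.06 on the cafeteria arrays and 9.28, 9.41 and 9.39 on the standard arrays. Both cafeteria values lay below all standard values, by 0.21 at the nearest, while the standard arrays spanned 0.13. The difference was -0.32 ± 0.06 (SE), with a 95% interval of -0.48 to -0.15, or 1.24-fold lower. The adjusted p over all probe sets was 0.263 in limma, which does not pass the threshold of 0.05. The difference ranged from -0.35 to -0.29 when each array was left out in turn. Its unadjusted p was under 0.05 in the fit over all arrays and in all 14 alternative fits, a remark chosen after its values were seen.

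**Figure D3:**
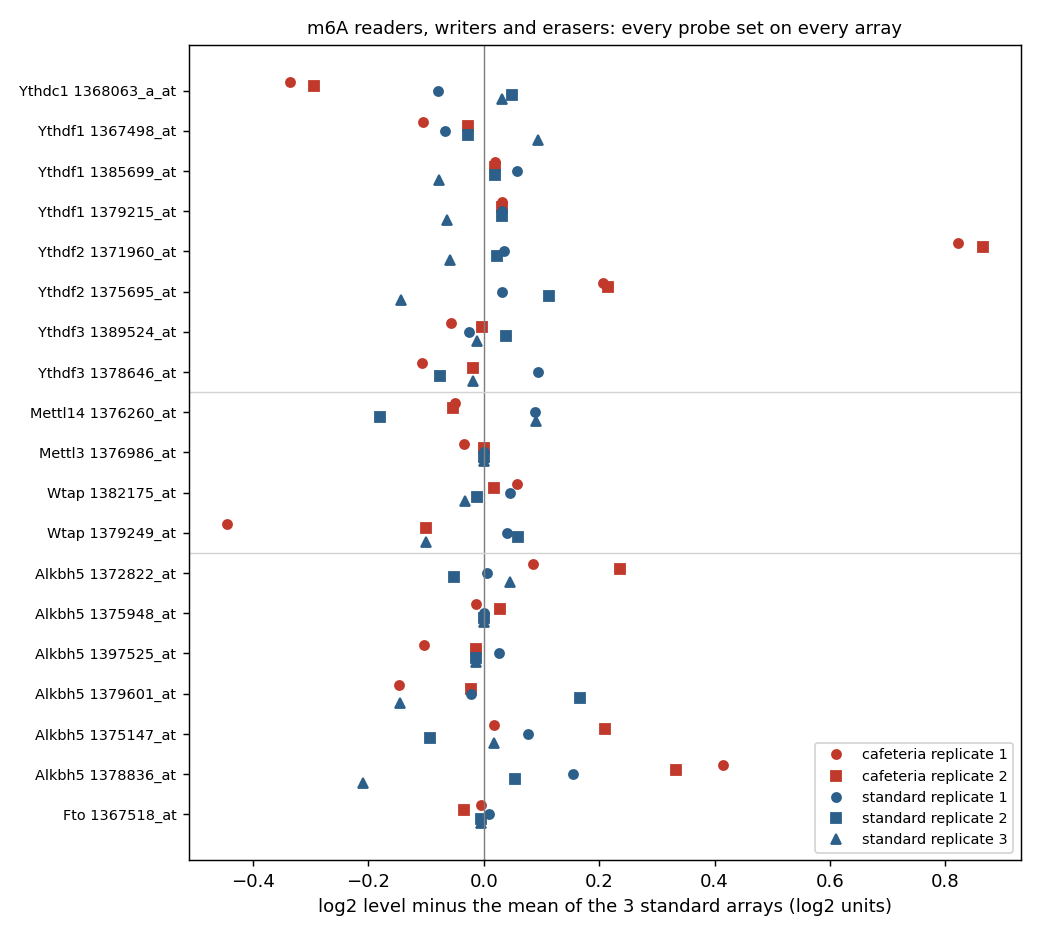
Log2 level on each array minus the mean of the 3 standard arrays (horizontal axis, log2 units) for all 19 probe sets, readers on top, writers in the middle and erasers at the bottom; red symbols are cafeteria and blue symbols standard arrays. Ythdf2 1371960_at and Ythdc1 are the rows where red and blue are furthest apart in each direction, while the points of Mettl3 and Fto nearly coincide.

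Of the writers, Mettl3, the catalytic subunit, hardly varied between the arrays. It read 7.97 and 8.01 on the cafeteria arrays and 8.01 on all 3 standard arrays, so 4 of the 5 arrays held the identical value. Its difference was -0.02 ± 0.05 (SE), with a 95% interval of -0.14 to 0.11 (limma, adjusted p = 0.874). Its range over the 5 arrays was 0.035 log2 units, and 2.09% of the probe sets tested had a range that small or smaller. Mettl14 varied more among standard samples than between diets: it read 7.48 on both cafeteria arrays and 7.62, 7.35 and 7.62 on the standard arrays, a difference of -0.05 with an interval of -0.33 to 0.23 (adjusted p = 0.823).

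For the adaptor Wtap the probe sets differed in sign. The brighter one, 1382175_at, read 8.81 and 8.77 on the cafeteria arrays and 8.80, 8.74 and 8.72 on the standard arrays, a difference of 0.04 with an interval of -0.10 to 0.18. The dimmer one, 1379249_at, read 6.72 and 7.07 on the cafeteria arrays and 7.21, 7.22 and 7.07 on the standard arrays, a difference of -0.27 with an interval of -0.61 to 0.06. Its low value came from cafeteria replicate 1: cafeteria replicate 2 equalled standard replicate 3, and the difference was -0.10 with cafeteria replicate 1 left out and -0.45 with cafeteria replicate 2 left out. Neither probe set passed the test (limma, adjusted p = 0.746 and 0.464).

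Fto, the eraser named for its link to fat mass, was among the steadiest transcripts of the set. It read 8.63 and 8.60 on the cafeteria arrays and 8.65, 8.63 and 8.63 on the standard arrays. Its only probe set, 1367518_at, gave a difference of -0.02 ± 0.05 (SE; limma, adjusted p = 0.852). The 95% interval of -0.14 to 0.10 spans from 1.11-fold lower to 1.08-fold higher. The value was identical on 3 arrays, and 2.65% of the probe sets tested had a range as small as its 0.044 or smaller. Values that repeat exactly make the spread look smaller than it may be, and can lower the standard error. Of the 18 members tested, 5 had the same value on at least 3 arrays, against 18.3% of all probe sets tested. The standard errors are limma's moderated ones, which draw on the variance of all probe sets. For Fto and Mettl3 they were 0.047, although the within-diet SD was only 0.014 for each.

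Alkbh5, the other eraser, has 6 probe sets, and they did not give one answer. The brightest, 1372822_at, read 9.16 and 9.31 on the cafeteria arrays and 9.08, 9.02 and 9.12 on the standard arrays. The diets did not overlap, with the nearest arrays 0.04 apart, and the difference was 0.16 with an interval of -0.03 to 0.35 (limma, adjusted p = 0.450). Leaving out cafeteria replicate 1 gave 0.24, and leaving out cafeteria replicate 2 gave 0.09.

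The dimmest Alkbh5 probe set, 1378836_at, gave the largest difference of the erasers. It read 4.99 and 4.91 on the cafeteria arrays and 4.73, 4.63 and 4.37 on the standard arrays, near the filter level of 4.28. The difference was 0.37 ± 0.13 (SE), with an interval of 0.04 to 0.71 (adjusted p = 0.355), and the standard arrays alone spanned 0.36. The other 4 probe sets gave 0.11, 0.01, -0.06 and -0.08, all with overlapping or tied diets and intervals that include 0. Over the 6 probe sets the mean difference was 0.09 and the gap from lowest to highest 0.46, the second widest of the member genes after Ythdf2.

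**Figure D4:**
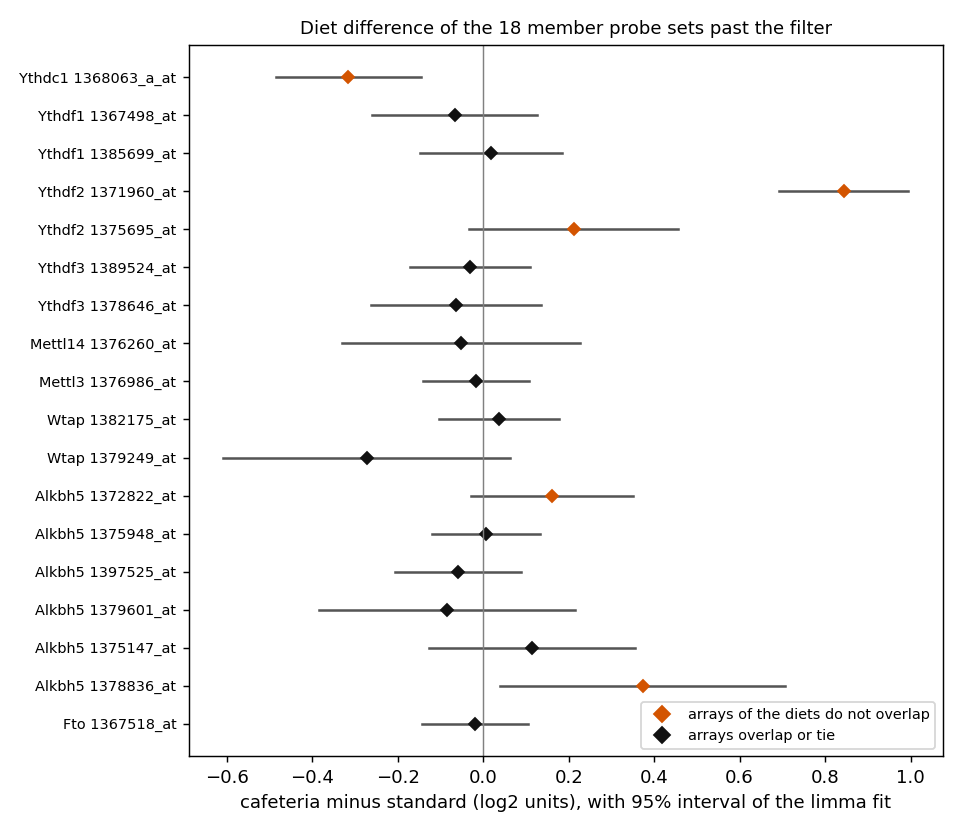
Cafeteria minus standard difference (log2 units, horizontal axis) of the 18 tested probe sets with the 95% interval of the limma fit; orange marks probe sets whose arrays do not overlap between diets. Ythdf2 1371960_at at 0.84 lies to the right of all others, and Ythdc1 at -0.32 is the lowest.

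Across the 18 tested probe sets 8 had a higher and 10 a lower mean in cafeteria samples, with a median difference of -0.02 against -0.0036 over all 21729 probe sets. In 11 of the 18 the difference was under 0.1 in absolute size, against 43.5% of all probe sets tested. No member passed an adjusted p of 0.05 in limma, where 0% of all probe sets did and the smallest adjusted p of any probe set was 0.0958. Of the 16 tested member probe sets other than those of Ythdf2, 2 had an unadjusted p under 0.05, Ythdc1 and Alkbh5 1378836_at, against 12.7% of all probe sets. The arrays of the diets did not overlap for 5 of the 18 probe sets, against 27.4% of all probe sets. In 4 of the 5 the cafeteria arrays were higher (13.3% of all probe sets), namely both Ythdf2 probe sets and Alkbh5 1372822_at and 1378836_at, and in 1, Ythdc1, they were lower (14.1%). Since the family was proposed from this contrast, nothing is read from these counts.

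The median within-diet SD of the 18 probe sets was 0.07, against 0.12 over all probe sets tested, and the median range over the 5 arrays was 0.24 against 0.34. Values that repeat exactly can lower both: 5 of the 18 had the same value on at least 3 arrays, against 18.3% of all probe sets tested. Of the 18, 6 belong to Alkbh5, and no comparison at matched signal level was made. Cafeteria replicate 1 held the lowest value for 9 of the 18 probe sets and cafeteria replicate 2 for 1. Cafeteria replicate 2 alone held the highest value for 5. Standard replicate 3 was lowest for 5, among them both Ythdf2 probe sets, and standard replicate 1, which held the acinar transcripts, was lowest for none of the 18. The matching counts over all probe sets tested were not computed, so nothing is read from these counts of lowest and highest arrays. Levels of different probe sets are not set against each other, since probes differ in how strongly they bind.

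The transcripts whose profile over the 5 arrays was closest to each Ythdf2 probe set are given next. Likeness was measured as the root mean square distance between log2 profiles centred on their mean, over 5 arrays, with 1 probe set per gene. For 1371960_at the closest genes were Ccser2 (distance 0.060), Asah2, a neutral ceramidase (0.064), Adipor2, an adiponectin receptor (0.082), the inositol transporter Slc2a13 (0.088) and Tmem120a (0.089), with diet differences from 0.81 to 0.97. For 1375695_at they were Rab2b, a small GTPase of vesicle transport (0.018), Uqcc1, an assembly factor of respiratory complex III (0.019), Derl1, a protein of endoplasmic reticulum quality control (0.019), Crim1 (0.025) and the lysyl oxidase relative Loxl2 (0.027), with differences from 0.19 to 0.25. The distance is not scaled, so it restates the size of each probe set's difference, and the Ythdf2 probe sets themselves were 0.31 apart. Genes near the second probe set have smaller distances in part because its profile is flatter: the median distance to all named probe sets was 0.17 for it and 0.42 for the first.

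A wider list was written for the family. It holds other genes of the pathway, relatives of the erasers, neighbours of Fto and transcripts studied as m6A-regulated in fat cell differentiation. Of its 59 symbols 49 were on the array, with 73 probe sets of 44 genes past the filter. None of the 73 passed an adjusted p of 0.05 in limma. An unadjusted p under 0.05 was found for 10, with 3 higher and 7 lower, a share over the whole list near the 12.7% of all probe sets tested. Of these, 2 of the 3 and 3 of the 7 were transcripts studied as m6A-regulated, and 1 of the 7 was a neighbour of Fto. The mean was lower in cafeteria samples for 48 of the 73, and the median difference was -0.05, against -0.0036 over all probe sets tested. The diets did not overlap for 3 probe sets with higher and 16 with lower values, where the shares over all probe sets were 13.3% and 14.1%, and the total of 19 was near the 27.4% of all probe sets.

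Of the other writers none of 15 probe sets had an unadjusted p under 0.05, and the 2 with the smallest p were Zc3h13, a scaffold of the writer complex, at -0.15 ± 0.06 (limma, adjusted p = 0.411), and Pcif1, which methylates the adenosine next to the cap, at -0.19 ± 0.10 (adjusted p = 0.497). Their other tested probe sets gave -0.06 ± 0.15 for Zc3h13 and -0.10 ± 0.06 for Pcif1. Both probe sets of Virma, the largest subunit of the complex, gave 0.01, with SE 0.06 and 0.05.

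Among the other readers and RNA binders 3 of 15 probe sets had an unadjusted p under 0.05, beside 12.7% of all probe sets tested. Hnrnpa2b1, a nuclear protein linked to m6A-marked transcripts and microRNA precursors, gave -0.38 ± 0.12 and -0.37 ± 0.12 on 2 probe sets (limma, adjusted p = 0.344 and 0.354) but -0.12 and 0.01 on its others. Fmr1, an RNA-binding regulator of translation, read 8.53 and 9.35 on the cafeteria arrays and 8.24, 8.04 and 8.16 on the standard arrays, a difference of 0.80 ± 0.26 (adjusted p = 0.354). The cafeteria samples lay far apart from each other, and the difference was 1.21 with cafeteria replicate 1 left out and 0.38 with cafeteria replicate 2 left out.

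Of the decay partners of YTHDF2, 2 of 12 probe sets had a higher and 10 a lower mean in cafeteria samples. Their median difference was -0.04, against -0.0036 over all probe sets tested. The share of lower means over all probe sets was not computed, and some of the falls were near 0, such as Cnot8 at -0.01. In limma 1 of the 12 had an unadjusted p under 0.05, beside 12.7% of all probe sets tested. This was Cnot6, a deadenylase of the CCR4-NOT complex, at -0.34 ± 0.11 on one probe set (limma, adjusted p = 0.334), with -0.24 and -0.03 on its others. Cnot1, the scaffold of that complex, gave -0.19 ± 0.08 (adjusted p = 0.425).

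For the genes that supply the methyl donor, 5 probe sets, none had an unadjusted p under 0.05. Mat2b, a regulatory subunit of the enzyme that makes S-adenosylmethionine, gave -0.14 ± 0.09, and Mat2a, its catalytic subunit, gave -0.18 ± 0.17 on one probe set and 0.11 and 0.03 on the others. Among 8 probe sets for relatives of the erasers, Alkbh1 gave -0.25 ± 0.12 on its brighter and 0.07 ± 0.07 on its dimmer probe set, and Alkbh7 gave -0.16 ± 0.15. The neighbours of Fto had 2 probe sets past the filter. Rbl2, a member of the retinoblastoma family, read 8.39 and 8.41 on the cafeteria arrays and 8.59, 8.63 and 8.62 on the standard arrays, a difference of -0.21 ± 0.05 (limma, adjusted p = 0.276), and the one Irx3 probe set past the filter gave 0.05 ± 0.08.

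Among transcripts studied elsewhere as m6A-regulated in fat cell differentiation, 5 of 16 probe sets had an unadjusted p under 0.05, beside 12.7% of all probe sets tested, and they came from 2 genes. All 3 probe sets of Ccnd1, the cyclin that drives entry into the cell cycle, were lower in cafeteria samples. The brightest, 1383075_at, read 9.37 and 9.16 on the cafeteria arrays and 10.08, 10.11 and 10.07 on the standard arrays, and the differences were -0.82 ± 0.08, -0.62 ± 0.08 and -0.53 ± 0.10 (limma, adjusted p = 0.171, 0.222 and 0.253). The diets did not overlap on any of the 3. Both probe sets of Mtch2, a mitochondrial outer membrane protein, were higher, at 0.65 ± 0.16 and 0.33 ± 0.08 (adjusted p = 0.281 and 0.294), again with no overlap. No Ccnd1 or Mtch2 probe set passed the adjusted threshold. Methylation of these transcripts was not measured.

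**Figure D5:**
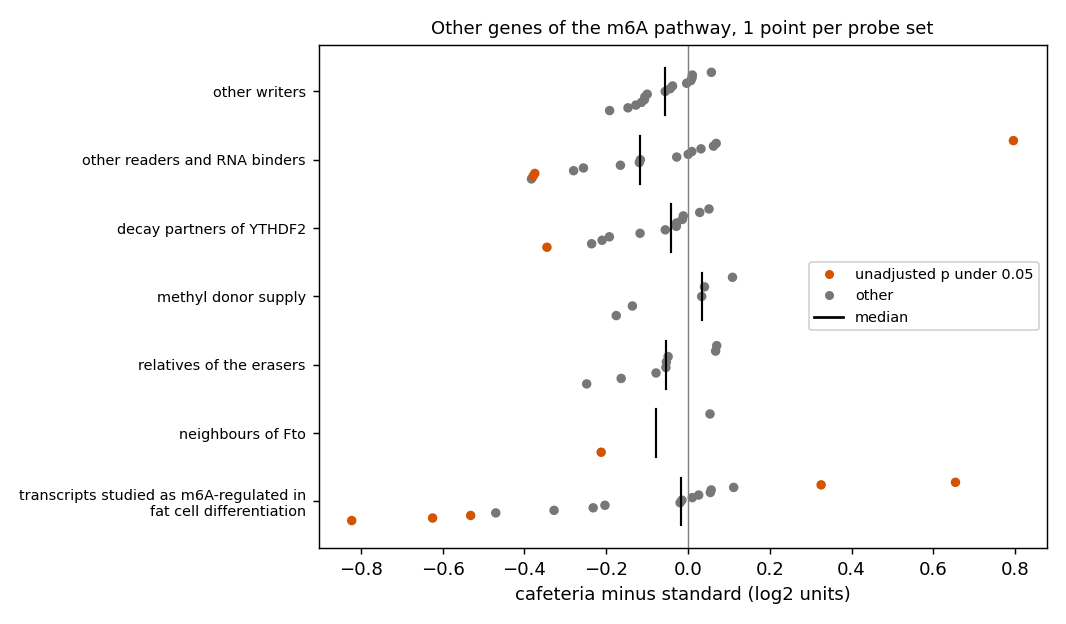
Cafeteria minus standard difference (log2 units, horizontal axis) of the 73 probe sets of the wider list, 1 point per probe set, grouped by part. The list includes neighbours of Fto and transcripts studied as m6A-regulated, beside other genes of the pathway. Black lines are medians and orange points have an unadjusted p under 0.05 in limma. The 3 lowest points are the Ccnd1 probe sets, and the highest point is Fmr1 at 0.80.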

How the data were processed

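Expression was measured on 5 arrays, 2 cafeteria and 3 standard, grouped by the diet in their titles. The deposited values are log2 levels per probe set; the submitters' processing notes name RMA and affy, without versions. RMA makes array distributions alike, which can hide a shift shared by most transcripts, and its summary step can return equal values on several arrays. After removal of control probe sets, those with a mean over 5 arrays above the 30th percentile, 21729 of 31042, were fitted with limma 3.58.1 (lmFit and eBayes, default settings, R 4.3.3), cafeteria minus standard, two-sided, adjusted by Benjamini-Hochberg and called at 0.05. Nothing in the labels says more of the samples than that they are independent; p-values measure the spread between them. Symbols came from the platform annotation, and the 19 member probe sets had gene identifiers in RefSeq. Named are all members, the 5 closest profiles, and wider-list genes at an unadjusted p under 0.05, beside their other probe sets. Where a part had none at that level, its 2 genes with the smallest p are named. Virma, Cnot1, Cnot8 and Irx3 fall outside this rule and were added with their values in view. Members and lists were chosen with earlier results of these data known. The fit was tested on simulated arrays. Alternatives were other filters, normalizations, variance models, array weights, a replicate block, gene summaries and leaving out each array. Figures used matplotlib 3.10.9.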

Additional observations from a re-analysis of the deposited data

How the results depend on the processing

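With 2 against 3 arrays, only large differences can be told from the spread between samples. Of the 18 member probe sets, 13 kept the sign of their diet difference in each alternative fit, and 5 with differences near 0 (Mettl3, Fto, and 1 probe set each of Alkbh5, Ythdf1 and Ythdf3) changed sign in at least 1. The Ythdf2 disagreement of 0.63 was 0.59 to 0.67 when an array was left out. The count of probe sets called at an adjusted p under 0.05, 0 over all arrays, was 6 when probe sets with 3 or more equal arrays were left out, an alternative chosen after the data were seen, in which no member was called. Probe sets at an unadjusted p under 0.05, 2754 over all arrays, ranged from 1981 to 4171 when an array was left out; the highest count was without cafeteria replicate 1. Members whose diets did not overlap numbered 5 over all arrays, 8 after quantile normalization and 6 to 14 with an array left out. There were 8 when cafeteria replicate 1 was omitted and 14 when cafeteria replicate 2 was. With 1 cafeteria array left, that array is assumed to vary like the others and groups overlap less easily. The share over all probe sets, 27.4%, is given for all 5 arrays only. The non-overlap counts in the other settings therefore have no matching share, and nothing is read from them. Members other than Ythdf2 at an unadjusted p under 0.05 numbered 2, 1 with the filter at the 50th percentile or array weights, and 1 to 2 with an array left out. Ythdc1 was among them in each alternative, while Alkbh5 1378836_at was not without standard replicate 2, nor without cafeteria replicate 1 or 2, where Alkbh5 1372822_at and Wtap 1379249_at were at that level instead. Wider-list probe sets at that level numbered 10 of 73, 4 of 44 with the brightest probe set of each gene, and 7 to 16 with an array left out, 16 without cafeteria replicate 1. The titles do not state that replicate numbers pair animals, so they were not taken as pairs. The 2 pairs that share a number had deviations that correlated at 0.08 and -0.04. With 2 cafeteria arrays, whose deviations from their mean mirror each other, these values cannot decide pairing. With a replicate block 2206 probe sets had an unadjusted p under 0.05 in limma, and Ythdf2 differed by 0.81 and 0.14 on its probe sets. Standard replicate 3 has no cafeteria partner, so the block fit gave member differences equal to those without that array and adds no separate estimate.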
